A study of Rattus norvegicus with 138 samples.

Results

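Regeneration of the injured tibialis anterior (TA) muscle after repair with a minced muscle graft was compared with that after no repair, 14 days post injury (DPI), in rats that did not run. The injury was volumetric muscle loss (VML), the surgical removal of a plug of muscle too large for the tissue to replace. All rats were inbred male Lewis rats of about 4 months. In the grafted rats the tissue punched out of the left TA was minced and put back into the same defect, so graft and host RNA cannot be told apart, and in the non-repaired rats the defect was left empty. Each group held 4 injured muscles of 4 rats, chosen by their labels for injury, running, repair and day, together 8 of the 114 muscles of the series that had a value in a group. Uninjured contralateral muscles, 2 for each arm at 14 DPI, and 4 control muscles labelled Sham, taken from both legs of 2 rats without an operation, served as background. The control muscles came from another set of rats by their labels, and this cannot be told apart from the absence of an operation. RNA-Seq of the whole TA gave 1 library for each of the 8 muscles, in TPM, a transcript level scaled for transcript length and for the total of the library.

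Muscle regenerates from satellite cells, stem cells beneath the basal lamina of the fiber that are marked by Pax7. They become myoblasts under the transcription factors Myf5 and MyoD, differentiate under myogenin, and fuse with each other or with a damaged fiber. A new fiber first builds its sarcomere from embryonic and neonatal isoforms, carries the fetal acetylcholine receptor over its surface until a nerve contacts it, and later exchanges these for adult forms. Here 89 genes of this course were listed in 8 groups, of which 78 were in the table and 74 exceeded 1 TPM in the mean of at least 1 group and were tested.

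The 8 libraries had 10145 to 10598 symbols above 1 TPM, against a minimum of 7000 that 13 libraries of other days did not reach and for which they were dropped. Pearson's r of log2(TPM + 1) over genes was 0.9876 to 0.9938 within the 6 pairs of grafted muscles, 0.992 to 0.9944 within the 6 non-repaired pairs and 0.9853 to 0.9941 over the 16 pairs between groups. Adult skeletal muscle genes were abundant in every library, with a summed level over 5 of them (Acta1, Ckm, Actn3, Pvalb and Tnnt3) of 93210 to 104700 TPM in grafted muscle and 100200 to 122100 TPM in non-repaired muscle. TPM keeps no read depth, so the counting error of each value cannot be given. In bulk tissue, fewer cells of a type and less RNA per cell cannot be told apart.

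Neonatal myosin heavy chain, Myh8, was the 1 regenerating-fiber gene called between grafted and non-repaired muscle at 14 DPI, and its level was higher in all 4 grafted muscles. Cst6, which encodes a secreted inhibitor of cysteine proteases, and Rassf7, which encodes a protein of the Ras association domain family, were also higher. These were the 3 genes called of 11213 tested, or 0.0268%, by limma on log2(TPM + 1) with a Benjamini-Hochberg adjusted p under 0.05 and a log2 fold change beyond 1, and no gene was called lower. At an unadjusted p under 0.05 there were 620 genes (5.53%). The whole table was shifted toward the grafted side: the median log2 fold change of all tested genes was 0.123, and 83.9% of them lay above 0. Rescaling the TPM by median-of-ratios size factors moved this median by 0.117, to 0.00577, so each list below is read against these medians.

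Cst6 stood at 4.59, 6.95, 4.51 and 3.73 TPM in grafted muscles 1 to 4 and at 1.14, 1.12, 1.98 and 1.04 TPM in non-repaired muscles 1 to 4. Every grafted muscle was above every non-repaired muscle, by a ratio of mean TPM of 3.75 and a log2 fold change of 1.35 ± 0.20 (SE, limma adjusted p = 9.7e-05). For Rassf7 the levels were 3.6, 6.7, 3.4 and 4.44 TPM with a graft and 1.53, 1.17, 1.83 and 2.13 TPM without. The groups did not overlap, and the log2 fold change was 1.03 ± 0.19 (SE, limma adjusted p = 0.00399). Without grafted muscle 2, the highest muscle for both genes, Cst6 was still called and Rassf7 was not (log2 fold change 0.86, adjusted p = 0.144), and Rassf7 was also not called without non-repaired muscle 2 (0.94, adjusted p = 0.0646). Klk1c12, a kallikrein gene of a family of near-identical copies among which reads can be split wrongly, and Lhfpl1 passed the adjusted p alone (both 0.00714) with log2 fold changes of 0.81 and 0.62, and are named after their values were seen.

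Genes of the immature sarcomere had the highest median log2 fold change of the 8 regenerating-fiber lists. Myh8, the myosin heavy chain of late fetal and newborn muscle, was at 188, 245, 224 and 162 TPM in grafted muscles 1 to 4 and at 51.5, 55.7, 70.3 and 79.2 TPM in non-repaired muscles 1 to 4. The lowest grafted muscle was thus above the highest non-repaired one by more than the full range of the non-repaired group. Mean levels were 205 ± 36.9 and 64.2 ± 12.9 TPM (SD, n = 4 each), a ratio of 3.19, and the log2 fold change was 1.66 ± 0.30 (SE, 95% interval 1.07 to 2.25, limma adjusted p = 0.00336). A two-sided exact permutation test of this gene gave p = 0.0286, the smallest that the 70 splits of 4 against 4 allow. Myh8 was called whichever of the 8 muscles was left out (log2 fold change 1.57 to 1.77), but not when the low-complexity libraries of other days were kept in the model (1.66, adjusted p = 0.201).

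Myh3, the embryonic myosin heavy chain, had levels of 172, 297, 190 and 170 TPM in grafted muscle and 70.2, 82.3, 103.9 and 132.3 TPM in non-repaired muscle. The groups did not overlap, yet grafted muscle 2 stood well above the other 3, and the log2 fold change of 1.09 (95% interval 0.28 to 1.90) had an adjusted p of 0.728 in limma. Tnnt2, the cardiac and embryonic form of troponin T, was at 161, 261, 170 and 141.5 TPM against 71.2, 69.7, 106.4 and 95.6 TPM. Its log2 fold change was 1.07 ± 0.29 (SE, limma adjusted p = 0.253), with every grafted muscle above every non-repaired one. Myl4, the embryonic and atrial essential light chain of myosin, was at 436, 672, 431 and 450 TPM against 255, 250, 375 and 338 TPM, again without overlap, with a log2 fold change of 0.70 ± 0.26 (SE, limma adjusted p = 0.728). Actc1, the alpha-actin of the heart and of embryonic skeletal muscle, overlapped between groups (849 to 1046 against 610 to 930 TPM), as did Myl6b and Mybph. Of the 7 developmental sarcomere genes 1 was called, 4 did not overlap between groups against 7.7% of all tested genes, and the median log2 fold change was 0.70 (0.57 with size factors) beside 0.123 for all genes. The myosin heavy chain genes share long stretches of sequence, and the split of reads between Myh3, Myh8 and the adult forms by pseudoalignment is uncertain.

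**Figure D1:**
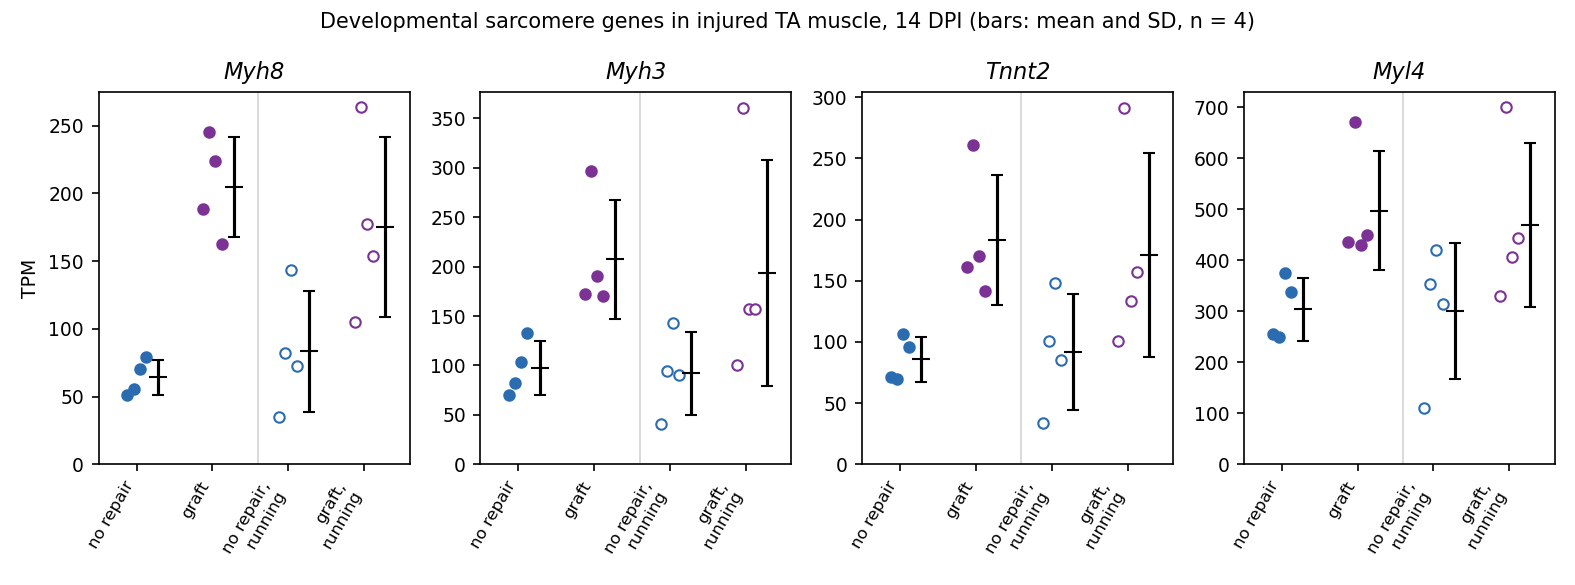
Levels in TPM (vertical axes, from 0) of Myh8, Myh3, Tnnt2 and Myl4 in injured TA muscle at 14 DPI, with each point 1 muscle, filled for non-running and open for running rats, and bars at the mean and SD of 4 muscles. In non-running rats every grafted muscle lies above every non-repaired muscle for each of the 4 genes, while in running rats the groups overlap.

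The 250 bases before the transcription start of Myh3, Myl4 and Tnnt2 are shown because these 3 genes did not overlap between groups and their windows hold the letters that muscle regulators are known to read. Capitals mark each E-box (CANNTG, read by MyoD and myogenin) and each M-CAT motif (CATTCC, searched on both strands, read by TEAD factors). The sequences are RefSeq promoter windows of build GRCr8, which is newer than the build of the deposited values, and Tnnt2 is the first of its 2 windows.
Myh3, chr10:52268935-52269184, plus strand: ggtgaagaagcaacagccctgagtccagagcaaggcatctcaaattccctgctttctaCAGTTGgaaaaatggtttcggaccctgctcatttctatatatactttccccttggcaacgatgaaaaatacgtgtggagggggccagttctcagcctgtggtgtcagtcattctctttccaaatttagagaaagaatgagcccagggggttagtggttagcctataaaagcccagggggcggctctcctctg
Myl4, chr10:89975900-89976149, plus strand: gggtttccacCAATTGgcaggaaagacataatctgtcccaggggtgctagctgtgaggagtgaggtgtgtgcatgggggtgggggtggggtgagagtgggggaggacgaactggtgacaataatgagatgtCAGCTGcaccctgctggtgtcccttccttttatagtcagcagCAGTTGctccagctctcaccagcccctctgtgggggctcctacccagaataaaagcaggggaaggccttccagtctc
Tnnt2, chr13:49818873-49819122, plus strand: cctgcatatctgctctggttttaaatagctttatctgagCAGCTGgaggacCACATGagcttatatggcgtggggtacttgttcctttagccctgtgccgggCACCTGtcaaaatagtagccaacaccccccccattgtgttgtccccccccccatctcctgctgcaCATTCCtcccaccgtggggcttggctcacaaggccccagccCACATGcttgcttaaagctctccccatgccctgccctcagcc
The Myh3 window held 1 E-box, 192 bases before the start. That of Myl4 held 3, at 240, 119 and 77 bases, and that of Tnnt2 held 4, at 211, 199, 148 and 42 bases, with an M-CAT at 83 bases. The windows of Myh8 and Actc1 held none of the motifs searched. Among the tested regenerating-fiber genes 49 of 74 had a window, and an E-box was present in 30 of them (61.2%) beside 65.5% of all 33469 windows. An M-CAT was in 9 of 49 (18.4%) beside 12.1%, a MEF2 motif in 6 (12.2%) beside 1.68%, and a CArG box in 2 beside 1.5%. Each listed gene was counted by its first window, whereas the shares over all windows include genes with several windows. The 6 genes with a MEF2 motif, the A and T rich element read by MEF2 factors, were Met, Myf6, Mef2a, Cav3, Klhl40 and Klhl41. In the windows shown for Myh3, Myl4 and Tnnt2, no motifs overlapped. These matches describe letters in a window and not bound sites.

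Genes of satellite cells lay slightly on the grafted side and none was called. Pax7, the transcription factor that marks these cells, was at 3.56 to 4.25 TPM in grafted and 2.66 to 3.98 TPM in non-repaired muscle, which overlapped (log2 fold change 0.21, adjusted p = 0.739). Cdh15, the M-cadherin that joins satellite cells and myoblasts to the fiber, was at 14.97, 18.98, 15.21 and 13.38 TPM against 10.52, 10.01, 11.61 and 10.89 TPM. Its groups did not overlap, and its log2 fold change of 0.49 ± 0.14 (SE) did not pass (limma adjusted p = 0.347). Fgfr4, a fibroblast growth factor receptor of myoblasts, and Megf10, a surface receptor of satellite cells, did not overlap either, with log2 fold changes of 0.42 and 0.34. In all, 3 of 13 genes did not overlap, beside 7.7% of all genes, 13 had a log2 fold change above 0, beside 83.9%, and the median was 0.252. With size factors 2 of 12 did not overlap (Cdh15 and Fgfr4), beside 3.57%, and the median was 0.134.

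The transcription factors of the myogenic program were close between groups. Myod1 stood at 45.7, 54.3, 43.5 and 62.3 TPM in grafted and 73.3, 56.8, 33.8 and 50.9 TPM in non-repaired muscle, a log2 fold change of -0.02 (95% interval -0.62 to 0.57). Myog, the factor of terminal differentiation, ranged from 124 to 193 TPM against 96.6 to 188 TPM (0.37, adjusted p = 0.728), and Myf6, expressed in mature fibers, from 162 to 282 against 169 to 219 TPM (0.13, adjusted p = 0.843). Both overlapped, with the highest value of each group in muscle 4. Myf5, the earliest of these factors in committed satellite cells, was at 7.98, 9.88, 7.98 and 9.29 TPM against 5.23, 5.81, 6.93 and 7.20 TPM, without overlap but without a call (0.43, adjusted p = 0.728). Over the 9 factors tested the median was 0.143, near that of all genes, and 0.0133 with size factors, and 2 did not overlap (Myf5 and Mef2a) beside 7.7% of all genes. With size factors 1 of the 9, Myf5, did not overlap, beside 3.57%.

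Of the genes of myoblast fusion, Tmem8c, the older symbol of the fusion protein myomaker, was at 44.1, 59.2, 44.4 and 48.8 TPM in grafted muscle and 27.09, 26.97, 34.7 and 39.7 TPM in non-repaired muscle. Each grafted muscle was higher than each non-repaired muscle, and the log2 fold change of 0.61 (95% interval 0.03 to 1.19) did not pass after adjustment (limma adjusted p = 0.728). Cav3, the caveolin of the muscle membrane, also did not overlap (166 to 227 against 145 to 161 TPM), whereas Dysf, the membrane repair protein dysferlin, did (60.2 to 80.4 against 57.4 to 70.7 TPM). Of the 6 genes 0 were called and 2 did not overlap, beside 0.0268% and 7.7% of all genes, and their median was 0.242. With size factors the median was 0.123 and Cav3 overlapped, whereas Tmem8c did not, beside 3.57%.

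Acetylcholine receptor genes, which rise in fibers without a nerve, overlapped between the groups with 1 exception. Chrng, the gamma subunit of the fetal receptor, was at 27.7, 48.6, 34.2 and 51.7 TPM in grafted muscle and 22.9, 22.2, 26.4 and 53.8 TPM in non-repaired muscle, so that non-repaired muscle 4 was the highest of all 8. Its log2 fold change was 0.42 ± 0.35 (SE, limma adjusted p = 0.728). Chrna1 and Chrnd, the alpha and delta subunits, had log2 fold changes of 0.28 and 0.34, with muscle 4 the highest of its group in each arm for both. Chrne, the epsilon subunit that replaces gamma in the adult receptor, did not overlap (41.8 to 63.8 against 30.3 to 40.1 TPM), nor did Rapsn, which clusters the receptor, at 34.5 to 42.2 against 27.2 to 33.6 TPM. Ncam1, an adhesion molecule of regenerating and denervated fibers, had a log2 fold change of 0.35. Among the 12 genes 0 were called (0.0268% of all genes), 2 did not overlap (7.7%), 11 were above 0 (83.9%) and the median was 0.345. With size factors the median was 0.212, Rapsn overlapped, and Chrne and Colq, which anchors acetylcholinesterase at the synapse, did not, beside 3.57% of all genes.

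No gene of fiber stress and regrowth was called. Sln, sarcolipin, the small inhibitor of the calcium pump, was at 2728 to 6147 TPM in grafted and 2286 to 4339 TPM in non-repaired muscle (log2 fold change 0.37). Ankrd1, a stretch-responsive ankyrin repeat protein, was at 447 to 897 against 380 to 803 TPM (0.28), again highest in muscle 4 of both groups. Fst, follistatin, which binds and blocks myostatin and activins, was at 13.1, 17.5, 12.9 and 16.6 TPM against 8.32, 7.31, 9.76 and 12.2 TPM, the 1 gene of these 10 that did not overlap, beside 7.7% of all genes (0.63, 95% interval 0.18 to 1.09, adjusted p = 0.728). The list's median was 0.302 with all 10 above 0, and 0.171 with 9 of 10 above 0 with size factors, beside 83.9% and 51.9% of all genes above 0.

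Imprinted growth genes, which are high in fetal muscle and return in regeneration, had a median log2 fold change of 0.441 over 9 genes (0.307 with size factors). Of these genes 0 were called, beside 0.0268% of all genes. Mest was at 118, 181, 97.8 and 91.3 TPM in grafted and 52.9, 65.7, 86.3 and 67.6 TPM in non-repaired muscle, without overlap, at a log2 fold change of 0.80 ± 0.31 (SE, limma adjusted p = 0.728). Igf2, a fetal growth factor for myoblasts, was at 356 to 436 against 292 to 325 TPM, and Peg3 and Grb10 likewise did not overlap (0.63 and 0.42). These 4 of 9 stand beside 7.7% of all genes, and the same 4 did not overlap with size factors, beside 3.57%. Dlk1, a membrane protein of the Notch ligand family, overlapped (71.9 to 140 against 48.9 to 113 TPM), as did the H19 RNA, the most abundant of the list at 19012 to 21243 against 20120 to 22409 TPM (-0.08).

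Taking the 8 lists as a whole, 1 of 74 genes was called, 18 did not overlap with grafted muscle higher, 0 did not overlap with it lower, and 68 had a log2 fold change above 0. The background for these is 0.0268%, 7.7%, 0.285% and 83.9% of all tested genes. The median of the 74 was 0.299 beside 0.123, and with size factors it was 0.175 beside 0.00577, with 15 of 73 not overlapping on the higher side (20.5%, beside 3.57%) and Nrap on the lower side. The 8 sarcomere assembly genes had a median of 0.0166, which was -0.118 with size factors, with Csrp3 (muscle LIM protein) highest at 0.48 and Nrap, a scaffold of early myofibrils, lowest at -0.18.

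**Figure D2:**
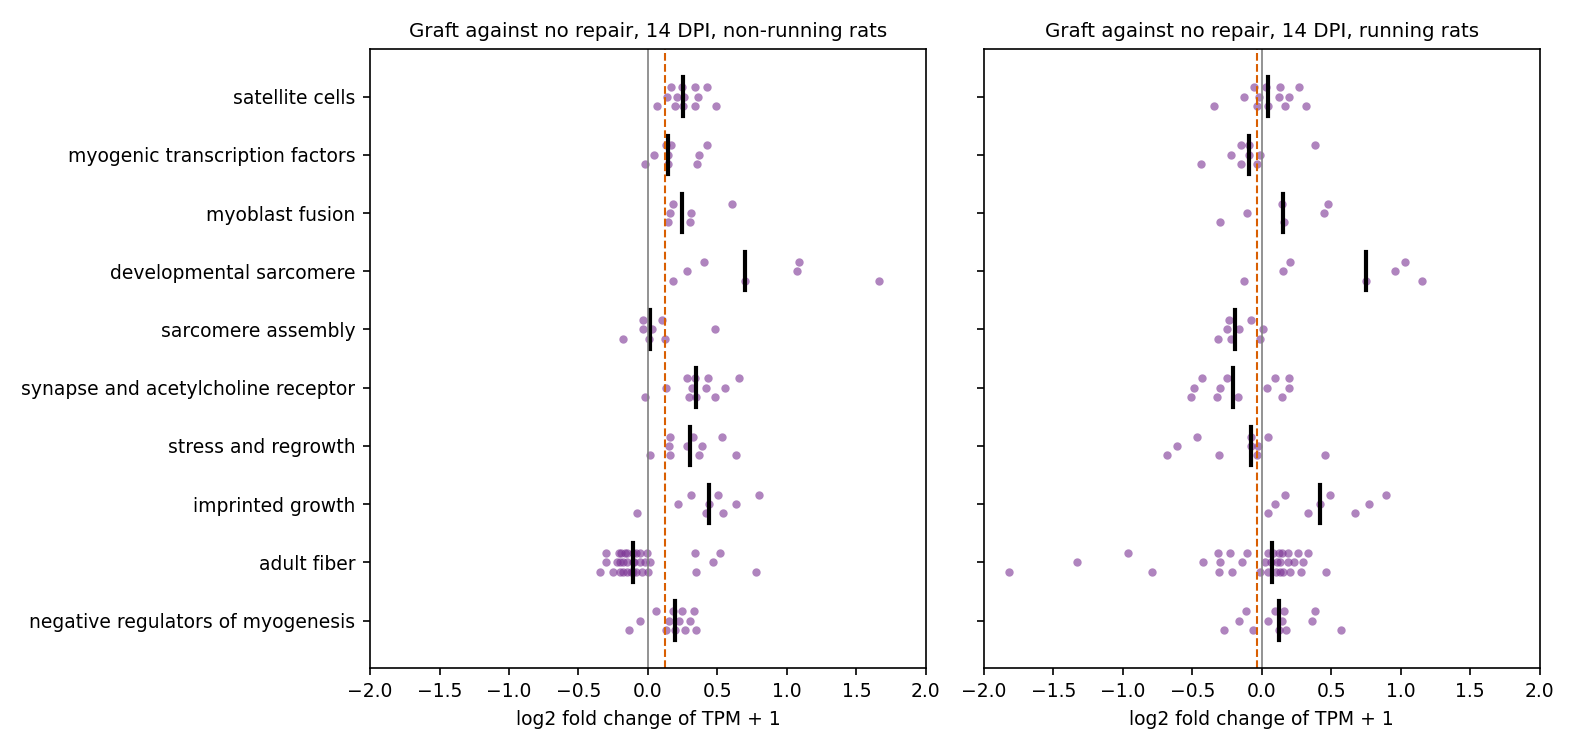
Log2 fold change of TPM + 1 (horizontal axes), graft against no repair at 14 DPI, of each tested gene in 10 lists, in non-running rats (left) and running rats (right). Points are genes, thick bars the list medians and the dashed line the median of all tested genes (0.123 and -0.0371), and the developmental sarcomere medians of 0.702 and 0.748 lie farthest to the right in both.

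Adult fiber genes showed no call in either direction over 34 tested genes, beside 0.0268% of all genes. Of the 34, 7 had a log2 fold change above 0, beside 83.9% of all genes. Myh4, the myosin heavy chain of the fastest fibers of the TA, was at 8562 to 9388 TPM in grafted and 8035 to 13643 TPM in non-repaired muscle (-0.30, 95% interval -0.86 to 0.25). Acta1, skeletal alpha-actin, was at 34941 to 40968 against 38491 to 47303 TPM (-0.15), and Ckm, muscle creatine kinase, had a log2 fold change of -0.18. Slow-fiber genes varied widely among muscles of the same group, with Myh7, the slow myosin heavy chain, at 221, 30.4, 64.8 and 9.58 TPM in grafted and 23.4, 104.5, 172 and 27.5 TPM in non-repaired muscle. Myh7 had the lowest log2 fold change of the list, -0.35, and Tnnt1, the slow troponin T, the highest, 0.78. Both overlapped between groups. The median of the list was -0.107, and -0.242 with size factors. With size factors 5 of the 34 were above 0 (Tnnt1, Tnni1, Tnnc1, Atp2a2 and Myh2), beside 51.9% of all genes. Mybpc1 was then the 1 gene that did not overlap, on the lower side, beside 1.7%. In running rats 21 genes of the list were above 0, beside 35% of all genes, and the median was 0.0721 beside -0.0371.

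The genes that the study named for its graft comparison were chosen on these samples and are not independent evidence. None of them was called at 14 DPI. Those for repressors of myogenesis were Id2 (log2 fold change 0.27), Msc (0.18), Snai1 (0.25), Mstn (-0.06) and Bmp1 (0.35), and Id2 alone among these 5 did not overlap (22.9 to 30.5 against 19.3 to 22.6 TPM). Over the 13 negative regulators listed, 0 were called and 2 did not overlap (Id2 and Smad2), beside 0.0268% and 7.7% of all genes. Their median was 0.196, or 0.069 with size factors, where 0 did not overlap beside 3.57%. Of the genes of fibrosis, Col3a1 was at 1844 to 2996 against 1821 to 2410 TPM, Mmp2 at 259 to 541 against 250 to 372 TPM, and Tgfb1, Pdgfra and Pdpn had log2 fold changes of 0.13, 0.16 and 0.05. In each of these the groups overlapped and grafted muscle 2 had the highest level.

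Markers of other cell types were compared in the same muscles. Over 10 leukocyte markers the summed level was 755 to 1154 TPM in grafted and 625.3 to 844.5 TPM in non-repaired muscle (median log2 fold change 0.136), and Lyz2, a lysozyme of macrophages, was the 1 of them that did not overlap, beside 7.7% of all genes. The 9 fibroblast and matrix markers summed to 6634 to 12750 against 6077 to 8784 TPM (median 0.155). Endothelial markers summed to 171.6 to 211.8 against 150.5 to 184.8 TPM over 7 genes, smooth muscle markers to 200.3 to 364 against 196.4 to 261.2 TPM over 4, Schwann markers to 59.9 to 91 against 62.13 to 121.3 TPM over 6, tendon markers to 284.9 to 629.4 against 233.9 to 388.5 TPM over 5, and genes of dividing cells to 21.41 to 27.44 against 18.35 to 23.52 TPM over 7. The 6 adipocyte markers summed to 456.7 to 515.8 against 408.5 to 514.1 TPM, nearly all of it Fabp4, and their median log2 fold change was -0.521 over 5 tested genes. Cidec, a protein of fat droplets, did not overlap on the lower side (0.11 to 0.18 against 0.2 to 1 TPM), beside 0.285% of all genes, and Adipoq, Plin1 and Retn overlapped. No marker of any of these lists was called, every summed range overlapped, and the part of these cells in the differences above was not tested.

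The level of Myh8 had its own course over the days in each arm. In non-repaired muscle its mean level was 5.42 ± 2.33 TPM at 3 DPI (SD, n = 3), 164 ± 31.7 at 7 DPI (n = 8), 64.2 ± 12.9 at 14 DPI (n = 4) and 33.3 ± 2.64 at 28 DPI (n = 4). In grafted muscle it was 3.93 ± 1.47 (n = 7), 173 ± 32.9 (n = 8), 205 ± 36.9 (n = 4) and 57.7 ± 35.3 TPM (n = 4). The non-repaired mean was thus highest at 7 DPI and the grafted mean at 14 DPI. The graft effect on Myh8 on the log2 scale was -0.39, 0.09, 1.66 and 0.44 on these 4 days in turn.

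Tested as a difference, the graft effect on Myh8 at 14 DPI exceeded that at 3 DPI by 2.06 ± 0.41 on the log2 scale (SE, limma adjusted p = 0.0354), and that on Cst6 by 1.45 ± 0.28 (adjusted p = 0.0318). These 2 genes were the only ones called of 11213 in that difference (0.0178%). The difference for Myh8 ranged from 1.96 to 2.16 as each of the 8 muscles of 14 DPI was left out, and it was called in 1 of those 8 fits, without grafted muscle 4. Against 7 DPI (1.58 for Myh8, adjusted p = 0.207) and 28 DPI (1.22) limma called 0 genes, and 225 and 80 passed p under 0.05 before adjustment. At 7 DPI Tnnt2 was at 397 ± 87.6 TPM in grafted and 253 ± 65.2 TPM in non-repaired muscle (SD, n = 8 each), a log2 fold change of 0.67 (adjusted p = 0.0332) that did not reach the limit of 1. Myh3 stood at 263 ± 67.9 against 183 ± 38.3 TPM and Myl4 at 1145 ± 226 against 867 ± 172 TPM on that day, and the median log2 fold change of the 7 genes was -0.518, 0.402, 0.702 and 0.123 at 3, 7, 14 and 28 DPI. By the full rule the graft comparison called 2 genes on the third day (0.0178%), 10 on the seventh (0.0892%) and 0 by 28 DPI, none of them a regenerating-fiber gene, and 2020, 3069 and 158 genes passed p under 0.05 in limma before adjustment. By adjusted p alone, without the limit on fold change, 29 genes passed at 3 DPI and 1027 at 7 DPI, beside 5 at 14 DPI. At 7 DPI 1023 of these were higher with the graft, or 9.12% of all tested genes, and 4 were lower. The median log2 fold change of all tested genes on that day was 0.11. Among the higher genes were 9 of the 74 regenerating-fiber genes, a share close to that of all genes. These were Cdh15, Fgfr4, Heyl, Itga7 and Megf10 of satellite cells, Myof of fusion, Fst, Nes and Tnnt2, with log2 fold changes below 1, such as 0.75 for Heyl (adjusted p = 4.9e-05), 0.49 for Cdh15 (0.00159) and 0.61 for Fst (0.012).

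**Figure D3:**
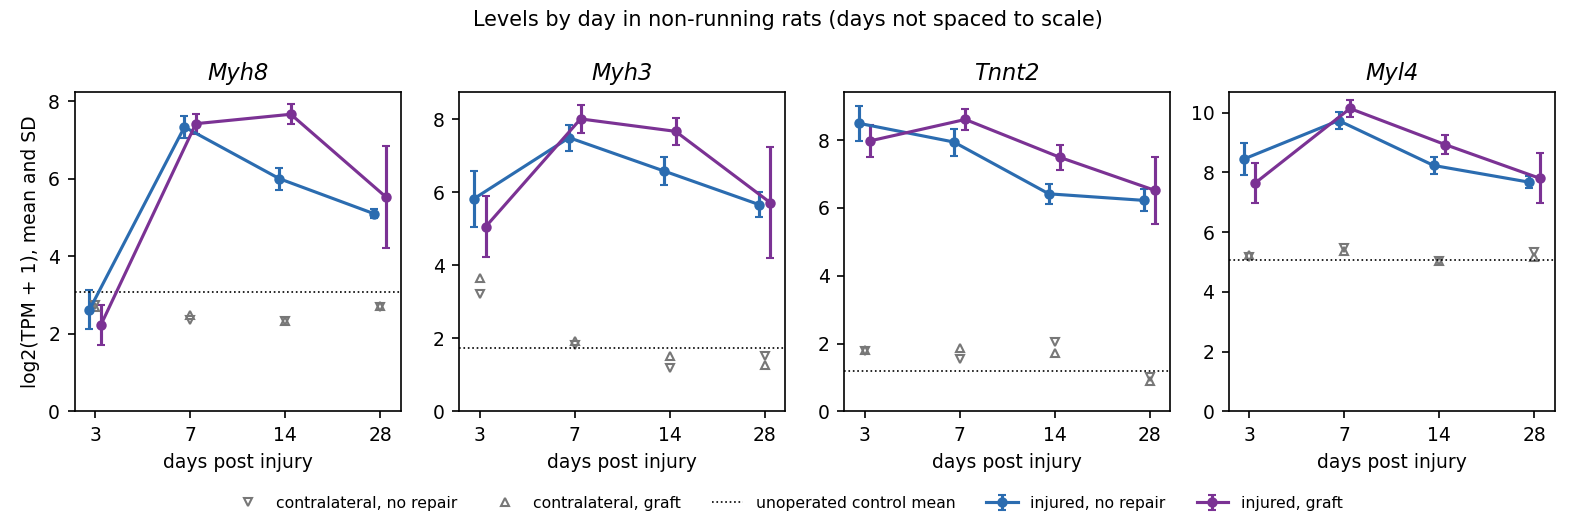
Mean and SD of log2(TPM + 1) (vertical axes) of Myh8, Myh3, Tnnt2 and Myl4 by day post injury in grafted and non-repaired injured muscle of non-running rats, with the contralateral means as triangles and the control mean as a dotted line. The arms are close for Myh8 at 7 DPI (173 and 164 TPM) and apart at 14 DPI (205 and 64.2 TPM).

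The same graft comparison was available at 14 DPI in 4 grafted and 4 non-repaired rats labelled as running, other rats than those above. Myh8 was at 105.2, 263, 178 and 154 TPM in grafted and 35.1, 82.1, 143.1 and 72.9 TPM in non-repaired running rats. Running non-repaired muscle 3 was above running grafted muscle 1, so the groups overlapped, and the log2 fold change of 1.15 ± 0.33 (SE, unadjusted p = 6.8e-04 in limma) had an adjusted p of 0.772. Myh3, Tnnt2 and Myl4 had log2 fold changes of 1.03, 0.96 and 0.75 and overlapped as well. These values rested in part on single muscles, since without running non-repaired muscle 1 they were 0.69, 0.54 and 0.32, and without running grafted muscle 2 they were 0.68, 0.66 and 0.54. The graft effect on Myh8 in running minus non-running rats was -0.51 ± 0.46 (SE, limma adjusted p = 0.851), and no gene was called in that difference (257 at an unadjusted p under 0.05).

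Cst6 was at 2.21, 7.75, 6.36 and 5.69 TPM in running grafted and 0.93, 1.77, 2.28 and 2.50 TPM in running non-repaired muscle, and rose with the graft by 1.12 on the log2 scale (limma adjusted p = 0.00468). It was 1 of 2 genes called in running rats (0.0177%), the other being Th, tyrosine hydroxylase, which was lower (-1.21, adjusted p = 0.0296). The call of Cst6 in running rats was lost without running non-repaired muscle 1, running grafted muscle 2 or running grafted muscle 3. Over the 74 regenerating-fiber genes 0 were called, 36 had a log2 fold change above 0 beside 35% of all genes, and the median was -0.0138 beside -0.0371. That median changed sign when running non-repaired muscle 2 (0.10) or running grafted muscle 3 (0.05) was left out. The developmental sarcomere list had a median of 0.748 and the imprinted list 0.416 in running rats, with 9 of 9 imprinted genes above 0, while the receptor list was at -0.208. No regenerating-fiber gene was free of overlap in both running and non-running rats. In running rats alone, 0.0981% of all genes did not overlap with grafted muscle higher. Of all genes 2 did so in both (0.0178%), Klk1c12 and Mmp9, named after their values were seen.

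Set against the contralateral muscle, both injured groups were higher in most regenerating-fiber genes. Myh8 was at 3.5 and 4.55 TPM in the 2 contralateral muscles of grafted rats and at 3.87 and 4.16 TPM in those of non-repaired rats, and at 7.46 ± 0.72 TPM in the control muscles (SD, 4 muscles of 2 rats). Between the contralateral muscles of both arms 0 genes were called in limma, with 88 at an unadjusted p under 0.05. Injured muscle was higher in Myh8 by 5.35 with a graft and 3.68 without on the log2 scale, in Myh3 by 6.14 and 5.39, and in Tnnt2 by 5.76 and 4.37. For Sln the increases were 7.06 and 7.20, and for Ankrd1 6.51 and 6.57. Of the 74 regenerating-fiber genes 45 were called higher in grafted muscle and 43 in non-repaired muscle, and none lower, beside 25.9% and 21.2% of all genes called higher and 0.544% and 0.169% called lower. With size factors the balance over all genes was another, with 1446 of 2152 calls higher with a graft and 1159 of 1584 without. Both of these contrasts have their own contralateral muscles, but only 2 each. They came from rats whose injured muscle was also in the contrast, and the main fit did not pair the 2 muscles of a rat.

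**Figure D4:**
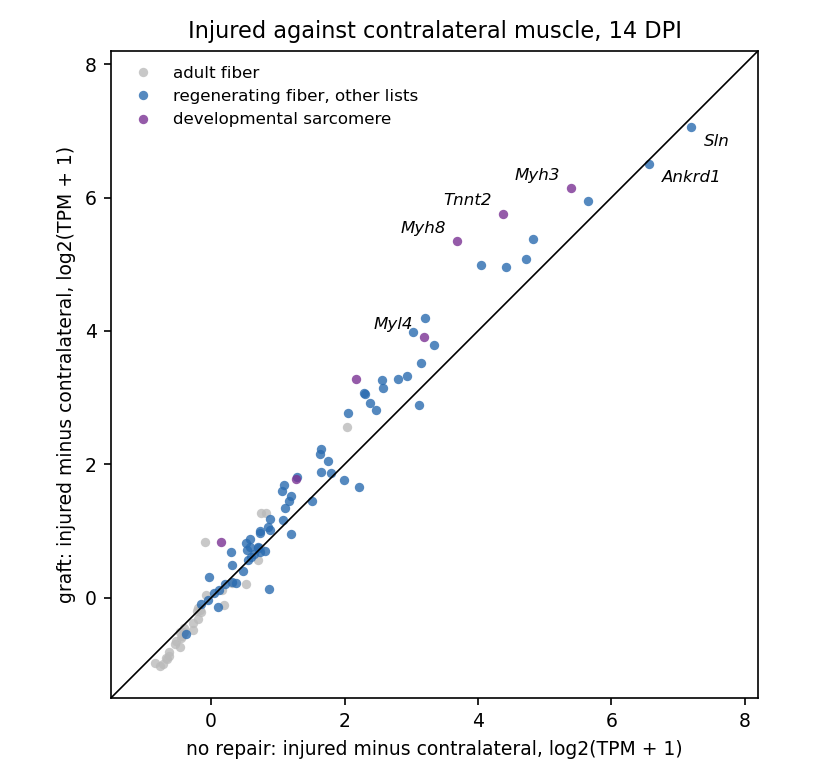
Difference in log2(TPM + 1) between injured and contralateral muscle at 14 DPI in non-repaired rats (horizontal axis) and grafted rats (vertical axis), with each point 1 gene of the regenerating-fiber or adult fiber lists and a line of equality. Myh8 lies above the line (5.35 against 3.68), and Sln and Ankrd1 lie close to it.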

How the data were processed

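The authors sequenced total RNA of whole TA muscle (paired end) and pseudoaligned the reads with Kallisto at default parameters to a Genbank-annotated rat genome of build 6.0. They deposited 1 table of TPM per gene symbol, all of whose sample columns were joined to their labels. The study's own tests ran DESeq2 on gene counts, which were not used here, and TPM gives no depth per library. The authors removed libraries of low read number. The table was read up to 16181 symbols, and genes after an incomplete last line were not analysed here. TPM is relative, so a change in very abundant genes moves all others.

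Groups came from the labels. Of the samples, 9 were assigned to no group because their labels disagree with each other on muscle or day. Libraries with fewer than 7000 symbols above 1 TPM were dropped and libraries of 1 muscle averaged. limma 3.58.1 (R 4.3.3) was fitted to log2(TPM + 1) of 68 muscles of non-running rats in 17 groups (51 residual degrees of freedom), with an intensity trend, on 11213 genes with a group mean above 1 TPM. For running rats the model held 114 muscles in 31 groups and 11328 genes. P-values were adjusted by Benjamini-Hochberg over all tested genes, and fold changes on this scale understate those of low genes. Calls needed an adjusted p under 0.05 together with a log2 fold change beyond 1. The 4 muscles of a group were of separate rats. The script was tested on simulated data. Named genes were the listed genes called, those the study named for its graft comparison, defining members of the lists, the highest and lowest of each list, and the called genes without overlap. Members and lists were chosen with earlier results of these data known. Promoter windows came from RefSeq (GRCr8), matched by symbol. 1 marker gene is not reported here and was left out of its list.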

Additional observations from a re-analysis of the deposited data

Results flagged for a closer look

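Single muscles stood apart from the other 3 of their group in 17 combinations of the 68 named genes with the 2 groups by Dixon's test, where chance gives about 1 in 20. Grafted muscle 2 accounted for 9 of them. It had higher levels of Myh3 (296.8 TPM, others 170 to 190.3), Myl4 (671.7, others 430.8 to 449.9), Bmp1 (71.92, others 40.38 to 43.47), Snai1 (15.86, others 7.65 to 9.02) and Tgfb1 (37.53, others 28.33 to 29.13). The macrophage genes Lyz2 (577.1 TPM, others 358.3 to 368.8) and Csf1r (38.3, others 27.46 to 28.37) and the tendon gene Thbs4 (250.9, others 150.6 to 155.2) were also highest there, while Tnnt3, fast troponin T, was lowest (19160, others 21370 to 21710). Without this muscle the log2 fold change of Myh3 was 0.90 and that of Myl4 0.55.

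In grafted muscle 3, Myh2 was at 1141 TPM (others 696.8 to 766.7). Non-repaired muscle 3 had more Cst6 (1.98 TPM, others 1.04 to 1.14), more Mmp2 (371.5, others 250.3 to 266.4), more of the myelin gene Mbp (14.19, others 2.87 to 4.16) and less H19 (20120, others 22220 to 22410). Non-repaired muscle 4 had more Chrng (53.83 TPM, others 22.21 to 26.35) and more Dysf (70.68, others 57.35 to 59.46), and non-repaired muscle 2 had less Id2 (19.33, others 22.25 to 22.57).

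The graft effect differed between days for 2 genes by the test of the difference in limma, 14 minus 3 DPI: 1.45 on the log2 scale for Cst6 (adjusted p = 0.0318) and 2.056 for Myh8 (adjusted p = 0.0354).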

How the results depend on the processing

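No paired analysis was possible because the labels give the compared groups no shared replicate numbers, and the muscle numbers used here are only names; with the rat as a random replicate block (within-rat correlation -0.00742) 3 genes were called at 14 DPI, and no call changed. The 14 DPI count of 3 became 5 by adjusted p alone, 2 with a pseudocount of 0.1, 2 with size factors, 2 with all libraries kept (0 regenerating-fiber genes), 1 with the 8 muscles alone (Myh8), 2 with the 14 DPI muscles alone and 4 with running rats pooled in, of which 2 were regenerating-fiber genes (Myh8 and Tnnt2). Rassf7 was not called with the pseudocount of 0.1 (log2 fold change 1.37, adjusted p = 0.218), with size factors (0.92), with the 8 muscles alone, with 14 DPI alone (adjusted p = 0.0841) or pooled (0.84), and Cst6 was not called with the 8 muscles alone (adjusted p = 0.0949). Leaving out 1 muscle gave 2 to 6 calls, 1 of them each time a regenerating-fiber gene (Myh8), and Cst6 was called each time.

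With a pseudocount of 0.1 the counts were 1 at 3 DPI, 29 at 7 DPI, 0 for 14 minus 3 DPI, 1 in running rats, 3 between contralateral muscles, 3812 for non-repaired against contralateral and 4422 against control muscle. With size factors they were 1 at 3 DPI, 1 at 7 DPI, 4 for 14 minus 3 DPI, 2 between contralateral muscles and 1584 for non-repaired against contralateral muscle, of which 1159 were higher, where 2374 of 2393 were higher without them. With all libraries kept they were 124 at 7 DPI and 0 for 14 minus 3 DPI. Leaving out 1 muscle gave 0 to 3 calls for 14 minus 3 DPI, 0 to 1 for 14 minus 7 DPI, 0 for 14 minus 28 DPI, 0 to 6 in running rats, 0 to 1 for running minus non-running rats, 2654 to 3099 for grafted and 2188 to 2535 for non-repaired against contralateral muscle. The causes were not tested.

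Of the 68 named genes, 64 kept their side of the threshold in each of the 19 settings in which they were tested (Pax3 in 16), Cst6, Myh8, Rassf7 and Tnnt2 did not, and 24, none of them called, changed sign in at least 1 setting. TPM gives no read count per gene, so the counting error of low genes such as Cst6 and Rassf7 cannot be given.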
